A study of Mus musculus with 16 samples.

Results

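The Sprr and squamous keratin genes described here are 10 genes of squamous and basal epithelium: Sprr1a, Sprr1b, Krt4, Krt5, Krt6a, Krt13, Krt14, Krt15, Trp63 and Ly6d. They were taken as every probe set that the platform annotation gives to exactly 1 of these symbols, which found 17 of the 20380 probe sets with a single symbol and all 10 genes of the 12393 measured. The genes were chosen from levels on these arrays, above all those of 1 array, from the adiponectin-deficient male M2 kept in air, that carries squamous markers. The differences between ozone and air, and between genotypes in air, are therefore given for the 10 genes as descriptions, with the SE or 95% interval of the fit as the error and no p, each with and without that array.

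Lung RNA from 16 mice was measured on 16 Affymetrix arrays, 1 mouse per array, so the replicates are separate animals. The 4 groups held 4 mice each, 2 males (M1, M2) and 2 females (F1, F2), with a mean age of 14 weeks. They were adiponectin-deficient mice after 72 h of 0.3 ppm ozone, an oxidant air pollutant, adiponectin-deficient mice after 72 h of room air, wildtype mice after the same ozone exposure and wildtype mice after the same room air. All carry a C57BL/6 background, and the deficient mice lack adiponectin, a hormone of fat cells, in the whole animal, by an allele not given in the sources used here. RNA came from the whole left lung without sorting, so fewer cells of a type and less RNA per cell cannot be told apart. The free description of wildtype ozone F1 names room air, while its title and exposure label name ozone, and it was kept in ozone. Values are log2 of the deposited intensity, on which 1 unit is a doubling, and a level is compared only with levels of the same probe set. Array medians lay between 146 and 154 intensity units, and precision is limited by how many arrays there are.

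Adiponectin's own gene, Adipoq, read 6.07 to 6.36 in deficient ozone, 6.32 to 8.82 in deficient air, 7.70 to 8.76 in wildtype ozone and 7.19 to 11.52 in wildtype air. Deficient air F2, at 8.82, lay in the wildtype range, and where its probe set lies relative to the altered part of the gene is not known here, so this does not check the labels. Summed fat cell markers were highest on wildtype air F1 and deficient air F2, and the ozone differences of Sprr1a without these 2 arrays and deficient air M2 were 3.87 log2 in deficient mice and 3.67 in wildtype mice.

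Stratified squamous epithelium, as in skin, mouth, oesophagus and forestomach, has a basal layer that divides and layers above it that differentiate. Basal cells are marked by the keratin pair Krt5 and Krt14, by Krt15 and by the transcription factor Trp63, and in the mouse trachea and large bronchi the basal cells of the airway carry them too. Krt4 and Krt13 pair in the upper layers of internal squamous linings, Krt6a is a keratin of wounded or fast-growing epithelium, and the small proline-rich proteins Sprr1a and Sprr1b are cross-linked under the cell membrane into the cornified envelope. The distal lung, which makes up most of a left lung, is lined instead by simple epithelium with the keratins Krt7, Krt8, Krt18 and Krt19.

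Sprr1a and Sprr1b lie in the same gene cluster on chromosome 3, with only Sprr3 between them in RefSeq's gene order for GRCm38.p6, yet they gave different profiles on these arrays, so the bases ahead of both starts are shown. RefSeq's promoter table held a window for 5 of the 10 genes. The sequences are from GRCm38.p6, from the minus strand and written 5′ to 3′ up to the base before the start for Sprr1a (chr3:92485882-92486131). For Sprr1b (chr3:92438818-92439029) they stop 39 bases before the start, since the annotation of the gene reaches that far. Capitals mark matches to TGANTCA, where N is any base, a broad form of the core that AP-1 factors bind. The motif reads the same on both strands, so 1 search covers both. The central base is G in the Sprr1a matches and A in the Sprr1b match.
Sprr1a: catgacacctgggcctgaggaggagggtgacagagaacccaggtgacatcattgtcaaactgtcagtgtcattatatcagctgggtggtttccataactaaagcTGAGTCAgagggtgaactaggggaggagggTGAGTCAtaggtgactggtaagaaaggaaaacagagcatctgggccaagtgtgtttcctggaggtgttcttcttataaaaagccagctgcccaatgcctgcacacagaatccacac
Sprr1b: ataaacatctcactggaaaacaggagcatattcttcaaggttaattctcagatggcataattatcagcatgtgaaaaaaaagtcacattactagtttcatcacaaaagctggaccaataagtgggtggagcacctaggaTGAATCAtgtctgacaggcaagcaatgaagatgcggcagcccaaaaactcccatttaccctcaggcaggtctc
The Sprr1a window held 2 matches, whose first bases lay 146 and 116 bases before the start, and the Sprr1b window held 1, at 111 bases. Of all 32851 windows of 250 bases in the table, 6.75% held at least 1 match and 0.338% held 2 or more. Of the other members, the 2 windows of Krt13 held 2 matches and 1 match, and those of Krt5 and Krt14 held 0. Tgm1 and Sfn, non-members described below for profiles close to that of Sprr1a, also held 0 in their windows. A match is a run of letters; no binding was measured.

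**Figure D1:**
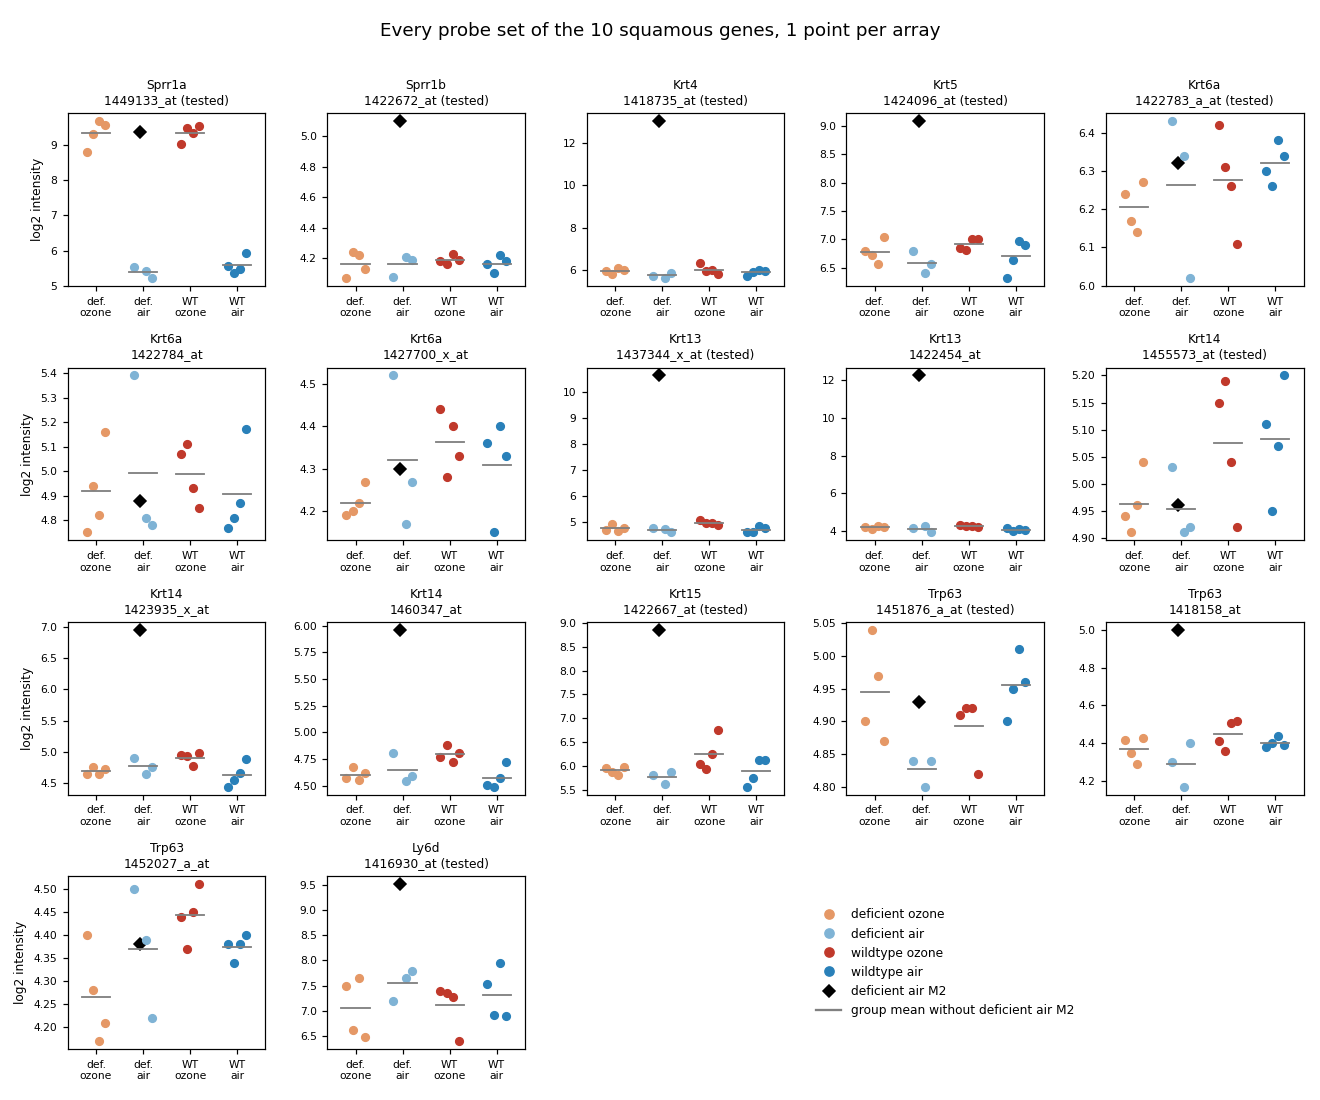
Log2 intensity of every probe set of the 10 genes, 1 point per array, in deficient ozone, deficient air, wildtype ozone and wildtype air (4 arrays each); the black diamond is deficient air M2 and the grey line is the group mean without it. Sprr1a lies between 8.81 and 9.68 on all 8 ozone arrays and between 5.22 and 5.93 on all air arrays but deficient air M2, while most other panels differ mainly by that array; each panel has its own vertical scale.

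Sprr1a was the 1 member with a large difference between ozone and air lungs. In deficient mice its log2 intensity was 8.81, 9.31, 9.68 and 9.57 in ozone, against 5.53, 9.36, 5.41 and 5.22 in air, with values listed as M1, M2, F1, F2 throughout. In wildtype mice it was 9.02, 9.48, 9.34 and 9.55 in ozone, against 5.56, 5.36, 5.49 and 5.93 in air. The ozone arrays lay above all air arrays in wildtype mice, and in deficient mice the M2 air array lay inside the ozone range. The group means were 9.34 ± 0.39 in deficient ozone, 6.38 ± 1.99 in deficient air, 9.35 ± 0.24 in wildtype ozone and 5.59 ± 0.24 in wildtype air (SD, n = 4 each), and deficient air without M2 averaged 5.39 ± 0.16 (SD, n = 3). In the order of these levels, the ozone groups differed from each other by less than their SD, and the air groups, with M2 left out, by less than 1 SD of wildtype air.

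The Sprr1a difference between ozone and air was 2.96 ± 0.65 log2 (SE of the limma fit), or 7.78-fold, in deficient mice and 3.76 ± 0.65, or 13.6-fold, in wildtype mice. Without deficient air M2 it was 3.99 ± 0.17, or 15.9-fold, in deficient mice, and the wildtype value kept its size with an SE of 0.16. The 95% intervals without that array ran from 3.63 to 4.35 in deficient mice and from 3.43 to 4.09 in wildtype mice. All 4 groups share 1 estimate of the spread, which is how an array of deficient mice widens the wildtype error.

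Sprr1b, the close relative, lay flat outside deficient air M2. It read 4.07 to 4.24 in deficient ozone, 4.08 to 4.21 on the other 3 deficient air arrays, 4.16 to 4.23 in wildtype ozone and 4.10 to 4.22 in wildtype air, against 5.10 on deficient air M2. No detection calls were used here. As a guide to what an absent transcript can read on these arrays, the 6 probe sets of the Y-linked genes Eif2s3y, Kdm5d and Uty gave 3.82 to 4.58 on the 8 female arrays. Background differs between probe sets, so no member is called absent from this.

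Krt4 and Krt13, the keratins of the upper layers of internal squamous linings, had the largest heights on deficient air M2. Krt4 read 13.03 there, against 5.64 to 6.35 on the other 15 arrays, a gap of 6.68 log2 (102.6-fold) to the highest of them. Krt13 read 12.25 on its probe set 1422454_at, against 3.92 to 4.32 elsewhere, and 10.64 on 1437344_x_at, against 4.60 to 5.09 elsewhere. Both probe sets of Krt13 therefore give the same picture, with gaps of 7.93 and 5.55.

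Outside that array both keratins varied within narrow ranges. Krt4 in deficient mice was 5.97, 5.84, 6.11 and 6.03 in ozone, against 5.76, 5.64 and 5.89 in air without M2. In wildtype mice it was 6.35, 5.97, 6.00 and 5.85 in ozone, against 5.76, 5.93, 6.00 and 5.96 in air. Exposure groups overlapped in both genotypes. The Krt13 probe set with the higher mean, 1437344_x_at, was 4.71, 4.93, 4.64 and 4.76 in deficient ozone, against 4.77, 4.75 and 4.61 in deficient air without M2. It was 5.09, 4.97, 4.98 and 4.88 in wildtype ozone, against 4.60, 4.61, 4.84 and 4.78 in wildtype air. The wildtype ozone arrays lay just above all wildtype air arrays, by a mean of 0.27 ± 0.08 log2 (SE without deficient air M2), while the groups of deficient mice overlapped. Krt13 on 1422454_at was likewise separate in wildtype mice, at 4.19 to 4.32 in ozone and 3.98 to 4.17 in air, all within the range of the Y-linked probe sets on female arrays.

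The basal keratins were also highest on deficient air M2, by less. Krt5 read 9.08 there, against 6.32 to 7.04 on the other 15 arrays. Krt15 read 8.85, against 5.57 to 6.76. The gaps to the next array were 2.05 for Krt5 and 2.09 for Krt15, or 4.13-fold and 4.25-fold.

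The 3 probe sets of Krt14 disagreed. On 1423935_x_at deficient air M2 read 6.95 and the other arrays 4.44 to 4.98, and on 1460347_at it read 5.96 and the others 4.49 to 4.88. On 1455573_at, which has the highest mean and stands for the gene in the fits, it read 4.96, inside the 4.91 to 5.20 of the other arrays. A further probe set annotated to both Krt17 and Krt14 was left out by the rule and read 5.41 on deficient air M2, inside its range of 5.26 to 5.85. The Krt14 differences of the gene-level fit are those of 1 flat probe set.

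Krt5 outside that array was 6.79, 6.73, 6.56 and 7.04 in deficient ozone and 6.80, 6.41 and 6.57 in deficient air. It was 6.85, 6.82, 7.01 and 7.0 in wildtype ozone and 6.32, 6.64, 6.98 and 6.91 in wildtype air. Ozone and air overlapped in both genotypes, with differences of 0.21 ± 0.14 in deficient mice and 0.21 ± 0.13 in wildtype mice without deficient air M2. Krt15 was 5.97, 5.89, 5.81 and 5.98 in deficient ozone and 5.82, 5.62 and 5.87 in deficient air without M2. In wildtype mice Krt15 was 6.05, 5.94, 6.25 and 6.76 in ozone and 5.57, 5.75, 6.14 and 6.14 in air, so that wildtype ozone F2 was the highest of the 15 arrays and the groups overlapped.

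Trp63, the transcription factor that defines basal cells, was raised on deficient air M2 on 1 of its 3 probe sets. On 1418158_at that array read 5.0, against 4.17 to 4.52 elsewhere. On 1451876_a_at it read 4.93 and on 1452027_a_at 4.38, both inside the ranges of the other arrays (4.80 to 5.04 and 4.17 to 4.51). None of the 3 spanned more than 0.35 log2 over the other 15 arrays. Krt6a, the wound keratin, was not raised on that array on any of its 3 probe sets. Its best-lit probe set, 1422783_a_at, read 6.32 there and 6.02 to 6.43 elsewhere, with 6.14 to 6.27 in deficient ozone, 6.02 to 6.43 on the other deficient air arrays, 6.11 to 6.42 in wildtype ozone and 6.26 to 6.38 in wildtype air.

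Ly6d, a surface protein of squamous cells that is also carried by cells of the B lineage, read 9.51 on deficient air M2. It was 7.50, 6.62, 7.66 and 6.49 in deficient ozone and 7.19, 7.66 and 7.80 on the other deficient air arrays. In wildtype mice it was 7.40, 7.36, 7.27 and 6.40 in ozone and 7.53, 6.92, 7.95 and 6.89 in air. Its spread over the 15 other arrays, 1.54 log2, was the widest of the members after Sprr1a, and all groups overlapped. The difference between ozone and air was -0.97 ± 0.43 in deficient mice, -0.48 ± 0.34 without M2, and -0.22 ± 0.31 in wildtype mice without that array. The ozone arrays with the lowest Ly6d were also low in Ms4a1, which encodes the B cell antigen CD20 and was looked up after the Ly6d values were seen. On 1423226_at Ms4a1 read 6.44 on deficient ozone M2, 6.65 on deficient ozone F2 and 6.28 on wildtype ozone F2, against 7.45 to 8.37 on the other 5 ozone arrays. Deficient air M2 read 8.27 for Ms4a1, inside the 8.07 to 9.50 of the other air arrays. The part of B cells in the Ly6d values was not tested.

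**Figure D2:**
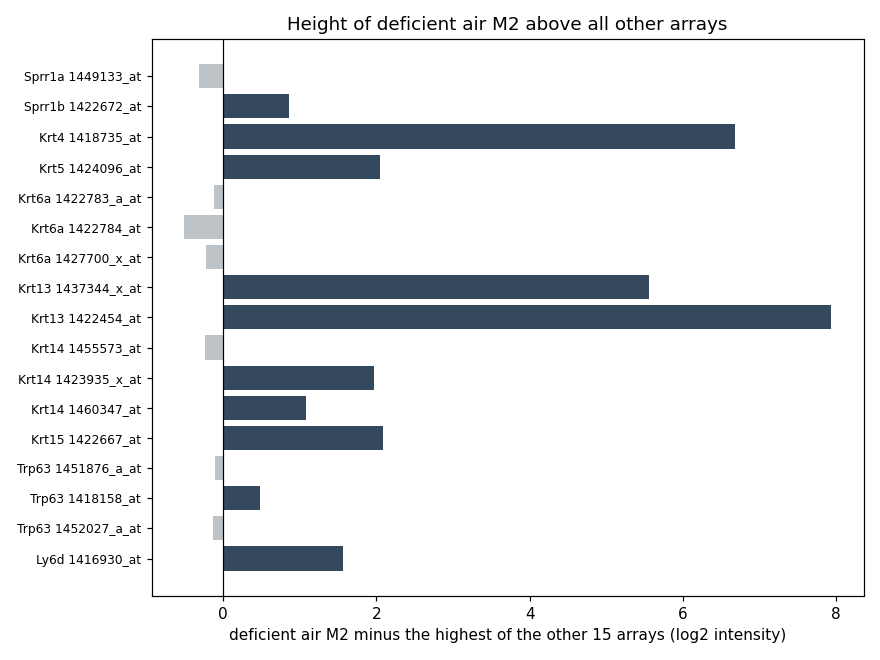
Deficient air M2 minus the highest of the other 15 arrays (log2 intensity) for each of the 17 probe sets, dark where that array is the highest. Krt13 and Krt4 stand 5.55 to 7.93 above all other arrays, and Krt6a, 1 probe set of Krt14, 2 of Trp63 and Sprr1a do not.

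Of the 17 probe sets, 10 were highest of all arrays on deficient air M2 and 8 stood over 1 log2 above every other array. Over all probe sets the shares were 5.24% and 0.716%. Because that array was part of choosing the genes, the counts are a description. The array that stood out for Krt4 and Krt13 also carried other squamous genes. Of 31 measured genes of a list on the cornified envelope that holds none of the members, 18 were highest there. Among them Krtdap, a secreted protein of differentiating keratinocytes, read 12.35 against 4.52 to 4.90 elsewhere. Sprr3, which lies between the members Sprr1b and Sprr1a, read 11.04 against 5.30 to 5.84. Lor, the main protein of the cornified envelope, read 12.05 against 4.72 to 6.39 on its brightest probe set. Another Lor probe set, 1420184_at, read only 5.62 on deficient air M2, against 5.13 to 5.49 elsewhere.

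Several genes of keratinizing skin were not raised on that array, although Krtdap and Lor were. Krt1 read 4.68 there and 4.61 to 4.91 elsewhere, Krt10 7.15 and 6.70 to 7.40, and the filaggrin gene Flg 4.13 and 3.94 to 4.16. Krt16 and Krt17, partners of Krt6a, read 4.45 and 4.41, inside 4.28 to 4.66 and 4.39 to 4.90. Of 10 skin and hair genes, Lor alone was highest on deficient air M2. Krt4, Krt13, Sprr3 and Lor were thus high on an array where the epidermal pair Krt1 and Krt10 was not.

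Markers of other tissues moved with the squamous genes on deficient air M2. Of 16 skeletal muscle genes 15 were highest there, among them Acta1, the skeletal muscle actin, at 13.08 against 5.75 to 6.19. Their summed intensity was 43650, against 2229 to 4076 on the other arrays. Of 10 genes of heart muscle, which also sheathes the pulmonary veins of mice, 8 were highest there, with a sum of 25074 against 8062 to 18018. Most did so narrowly: 2 stood over 1 log2 above every other array and the median gap was 0.18. For skeletal muscle these were 14 and 3.36. None of 11 cartilage, 8 thymocyte, 5 thyroid and 9 fat cell genes was highest on that array. The 8 lung identity genes summed to 86863, inside the 86070 to 94225 of the other arrays, with Sftpc at 14.55 and Scgb1a1 at 14.65. These 2 bright genes weigh most in the sum and varied little elsewhere (14.51 to 14.62 and 14.57 to 14.72). Sftpb, at 13.34, lay below its 13.41 to 13.88 elsewhere, and the rest of the list lay inside their ranges. Where the squamous and muscle RNA came from was not tested.

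**Figure D3:**
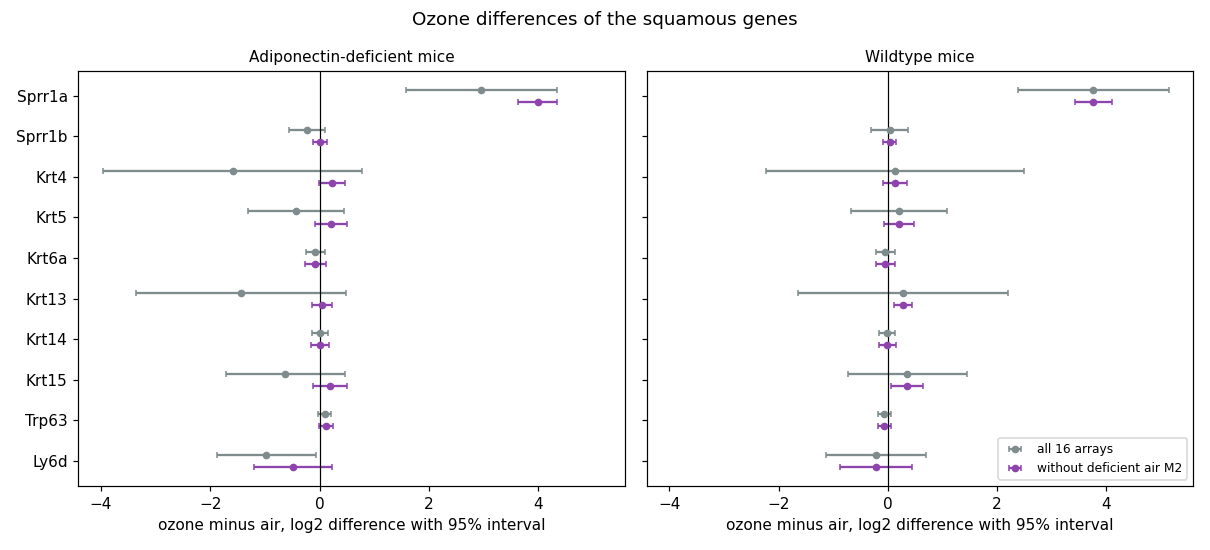
Log2 difference between ozone and air lungs for the 10 genes in deficient and in wildtype mice, with 95% intervals of the limma fit, over all 16 arrays (grey) and without deficient air M2 (purple). Only the Sprr1a intervals lie above 1 log2, and the intervals of Krt4, Krt13, Krt15 and Krt5 are several times wider with that array in the fit.

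Side by side, the ozone differences of the members other than Sprr1a were small once deficient air M2 was left out. In deficient mice they ran from -0.48 for Ly6d to 0.23 for Krt4, and in wildtype mice from -0.22 for Ly6d to 0.35 for Krt15. With the array in the fit, the deficient differences of Krt4 and Krt13 were -1.59 ± 1.11 and -1.44 ± 0.90, and those of Krt15 and Krt5 -0.63 ± 0.51 and -0.43 ± 0.41. Leaving it out turned the sign of all 4, to 0.23 ± 0.11, 0.04 ± 0.09, 0.19 ± 0.15 and 0.21 ± 0.14. The median over the 10 genes was -0.33 in deficient mice, 0.079 without M2, and 0.080 in wildtype mice. Over all genes these medians were 0.012, 0.017 and 0.032.

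These contrasts had been used to choose the genes, so no p is given for them and nothing is read from the counts that follow. In deficient mice 0 of the 17 probe sets had ozone arrays above all air arrays, where 14.4% of all probe sets did. Without M2 there were 2, those of Sprr1a and Trp63 1451876_a_at, where 17.1% did. In wildtype mice there were 3, of Sprr1a and both of Krt13, where 15.8% did.

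In air, the differences between deficient and wildtype mice of Sprr1a, Sprr1b, Krt4, Krt5, Krt13, Krt15 and Ly6d were smaller in size, some with the other sign, once deficient air M2 was left out. Sprr1a differed by 0.80 ± 0.65, Krt4 by 1.67 ± 1.11 and Krt13 by 1.49 ± 0.90. Without M2 they differed by -0.24 ± 0.17, -0.16 ± 0.11 and 0.01 ± 0.09. Krt6a and Krt14, at -0.04 and -0.13, were the same to 2 decimals with and without the array, and Trp63 was at -0.10 with it and -0.13 without it. The median over the 10 genes was 0.57 with the array and -0.13 without it, against -0.003 and -0.004 over all genes. Of the 17 probe sets, 0 lay wholly lower in deficient air, where 1.76% of all did, and without M2 there was 1, Trp63 1451876_a_at, at 4.80 to 4.84 in deficient air and 4.90 to 5.01 in wildtype air, where 3.68% did.

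The comparison of genotypes within ozone does not use deficient air M2 for its values, and it was tested. No member was called by limma (Benjamini-Hochberg adjusted p under 0.05 over all genes) between deficient and wildtype mice in ozone, where 0.0161% of all genes were, and 0.0403% without deficient air M2. With an unadjusted p under 0.05 there were 0 members of 10 over all arrays and 2 without deficient air M2, Krt13 and Krt15, while 11.2% and 11.7% of all genes reached that. Sprr1a differed by -0.004 ± 0.155 log2 without that array, with a 95% interval from -0.34 to 0.33 and an adjusted p of 0.993. With all arrays the interval ran from -1.38 to 1.37 and the adjusted p was 0.998. A difference inside the interval without deficient air M2 could not be seen with these arrays. A somewhat larger one could also go uncalled, since p was adjusted over all genes.

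Krt13 differed by -0.22 ± 0.08 and Krt15 by -0.34 ± 0.13 between deficient and wildtype ozone, without deficient air M2 in the fit, with adjusted p of 0.317 and 0.359. With all arrays the adjusted p were 0.950 and 0.847. The other 7 members, apart from Sprr1a, differed by -0.14 to 0.05. The median over the 10 genes was -0.063, against -0.008 over all genes. Of the 17 probe sets, 3 lay wholly lower in deficient ozone, where 3.33% of all probe sets did, and limma called none of the 3. They were Krt14 1423935_x_at, at 4.64 to 4.75 in deficient ozone and 4.77 to 4.98 in wildtype ozone, Krt14 1460347_at, at 4.55 to 4.68 and 4.72 to 4.88, and Krt6a 1427700_x_at, at 4.19 to 4.27 and 4.28 to 4.44. The groups are separate by less than 0.1 log2 between the nearest arrays in each case, and the third Krt14 probe set overlapped.

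The ozone difference in deficient mice minus that in wildtype mice was -0.80 for Sprr1a over all arrays and 0.23 ± 0.23 without deficient air M2, with a 95% interval from -0.26 to 0.72. Krt4 gave -1.72 with the array and 0.10 ± 0.15 without it. The median over the 10 genes was -0.70 with the array and -0.0072 without it. Limma called 0 of the 12393 genes for this difference with or without the array, and 605 and 585 had an unadjusted p under 0.05.

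Between female and male mice no member was called by limma, where 5.66% of all genes were, and 5.41% without deficient air M2. Sprr1a differed by -0.28 ± 0.46 (adjusted p = 0.793), and by 0.24 ± 0.11 (adjusted p = 0.247) without deficient air M2, itself a male. Krt15 differed by 0.25 ± 0.10 without that array (adjusted p = 0.158), and was the 1 member of 10 with an unadjusted p under 0.05, which 21.5% of all genes had. All arrays together gave a median of -0.18 over the 10 genes, and 0.014 without deficient air M2.

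**Figure D4:**
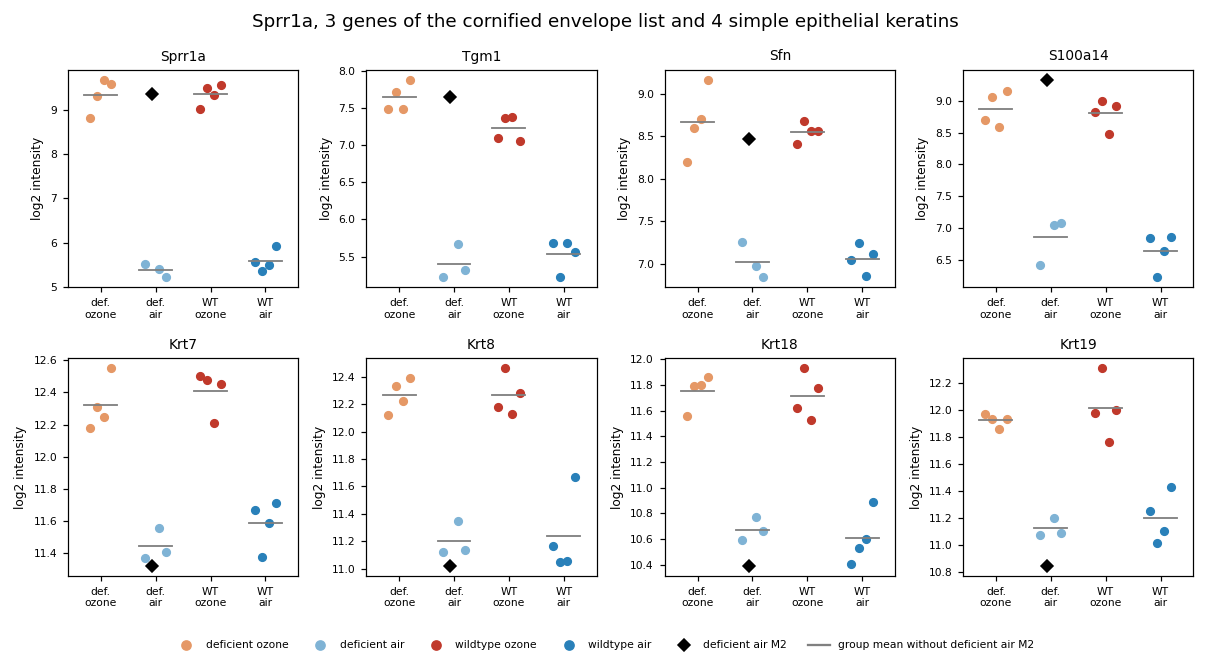
Log2 intensity on each array of Sprr1a, of Tgm1, Sfn and S100a14 from the cornified envelope list and of 4 keratins of simple epithelium, in deficient ozone, deficient air, wildtype ozone and wildtype air; the black diamond is deficient air M2 and the grey line is the group mean without it. In the upper row that array lies at the ozone level (Sfn 8.47, Tgm1 7.65, S100a14 9.33), and in the lower row it is the lowest of all 16 arrays.

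The genes with the profile closest to Sprr1a over the 16 arrays were Sfn, Tgm1 and S100a14, followed by Tmem54 and Rps26. The root mean square difference of their standardized profiles from that of Sprr1a was 0.215, 0.236, 0.269, 0.329 and 0.330 SD. The first 3 come from the cornified envelope list. Closeness to Sprr1a was measured on these same arrays, so the high levels of these genes in ozone and on deficient air M2, and the tests of their ozone differences, restate that choice and are no independent evidence. Tgm1 encodes the transglutaminase that cross-links cornified envelope proteins, Sfn the 14-3-3 sigma protein of differentiating keratinocytes, and S100a14 a calcium-binding protein of epithelia. Krt5 was closest to Casq1, Klk10, Serpinb5, Cysrt1 and Myoz1 (0.255 to 0.274 SD), and Krt4 to Defb4, Lce3a, Myh8, Calm4 and Lce1f (0.069 to 0.089 SD). Casq1, Myoz1 and Myh8 are skeletal muscle genes, and all 10 of these genes were highest on deficient air M2. Krt5 and Krt4 were themselves far highest on that array, so this follows from choosing genes by closeness to them. Casq1, the skeletal muscle calsequestrin, read 9.18 there and 5.94 to 6.55 on the other arrays.

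Tgm1, the enzyme, was measured at 7.48, 7.71, 7.49 and 7.88 in deficient ozone, against 5.22, 7.65, 5.67 and 5.32 in deficient air. In wildtype mice it was 7.10, 7.36, 7.38 and 7.06 in ozone, against 5.68, 5.22, 5.68 and 5.56 in air. As with Sprr1a, deficient air M2 sat among the ozone arrays and the other air arrays did not. Tgm1 rose with ozone by 1.67 ± 0.37 in deficient mice (limma adjusted p = 0.00336) and by 1.69 ± 0.37 in wildtype mice (adjusted p = 0.00287). Without M2 the rise in deficient mice was 2.26 ± 0.14.

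Sfn was 8.20, 8.60, 8.71 and 9.17 in deficient ozone, against 7.26, 8.47, 6.98 and 6.84 in deficient air, and 8.41 to 8.68 in wildtype ozone, against 6.86 to 7.24 in wildtype air. It rose by 1.28 ± 0.27 (adjusted p = 0.00237) in deficient mice and by 1.49 ± 0.27 (adjusted p = 7.14e-04) in wildtype mice. S100a14 was 8.70, 9.06, 8.58 and 9.15 in deficient ozone, against 6.43, 9.33, 7.05 and 7.09 in deficient air, and 8.48 to 8.99 in wildtype ozone, against 6.23 to 6.87 in wildtype air. It rose by 1.40 ± 0.42 (adjusted p = 0.0208) in deficient mice and by 2.16 ± 0.42 (adjusted p = 0.00124) in wildtype mice. Without M2 the S100a14 rise in deficient mice was 2.04 ± 0.19 and that of Sfn 1.65 ± 0.17.

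Of the 44 genes on the cornified envelope list 31 were measured. In deficient mice 4 of them rose with ozone and 3 fell, where 15.8% of all genes rose and 14.6% fell. In wildtype mice 6 rose and 1 fell, where 19.6% and 17.1% of all genes did. Without deficient air M2, 6 rose and 3 fell in deficient mice, where 29.9% of all genes were called, and 13 rose and 2 fell in wildtype mice, where 37.2% were. The median difference of the list was -0.17 in deficient mice, 0.048 without M2, and 0.17 in wildtype mice. Limma called 0 of the 31 for a difference between the ozone effects of the genotypes. An unadjusted p under 0.05 was reached by 1 of them, and by 3 without deficient air M2. Of all genes, 4.88% and 4.72% reached it.

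Beside Tgm1, Sfn and S100a14, Mal, a membrane protein of apical sorting, rose by 0.99 ± 0.14 (adjusted p = 1.03e-04) in deficient mice and by 0.83 ± 0.14 (adjusted p = 3.50e-04) in wildtype mice. Sprr2k, a relative of the members in the same family, rose by 0.39 ± 0.07 in wildtype mice (adjusted p = 9.57e-04), at 8.18 to 8.27 in ozone against 7.81 to 7.99 in air. In deficient mice its groups overlapped, at 7.82 to 8.17 in ozone and 7.81 to 7.96 in air. Scel, the cornified envelope precursor sciellin, fell by 0.92 ± 0.14 in deficient mice (adjusted p = 1.51e-04) and by 0.90 ± 0.14 in wildtype mice (adjusted p = 1.68e-04). Ppl, the desmosome-linked envelope protein periplakin, fell by 0.49 ± 0.14 (adjusted p = 0.0178) in deficient mice, and by 0.30 ± 0.10 (adjusted p = 0.0296) without M2, which is the highest array for it. Both are envelope proteins, and in deficient mice both fell while Tgm1 rose. In wildtype mice Scel was the 1 gene of the list called lower over all arrays.

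Lor was the largest of the rises called in wildtype mice once deficient air M2 was left out and not with it, and was picked out after the values were seen. On 1420183_at it was 5.95, 6.39, 5.89 and 5.62 in wildtype ozone, against 5.16, 5.35, 4.72 and 4.99 in wildtype air, a difference of 0.90 ± 0.14 (limma adjusted p = 1.79e-04 without that array). In deficient mice it was 5.41, 5.98, 5.43 and 5.75 in ozone, against 5.29, 4.74 and 4.83 in air without M2, a difference of 0.64 ± 0.15 (adjusted p = 0.00479). The other probe sets of Lor did not share this separation of the groups. On 1420184_at wildtype mice gave 5.23 to 5.49 in ozone and 5.13 to 5.27 in air, and deficient air M2 read 5.62. On 1448745_s_at wildtype mice gave 5.05 to 5.41 in ozone and 5.0 to 5.25 in air, although deficient air M2 read 12.92 on it. Ivl, the envelope protein involucrin, rose by 0.21 ± 0.07 in wildtype mice (adjusted p = 0.0352), at 4.81 to 4.98 in ozone and 4.55 to 4.74 in air.

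Among 19 measured genes of stratified keratins and desmosomes, 1 rose and 1 fell with ozone in deficient mice, where 15.8% and 14.6% of all genes did, and 2 rose and 1 fell in wildtype mice, where 19.6% and 17.1% did. Jup, the junction protein plakoglobin, rose by 0.43 ± 0.10 (adjusted p = 0.00381) in deficient mice and by 0.29 ± 0.10 (adjusted p = 0.0322) in wildtype mice. Dsp, desmoplakin, fell by 0.64 ± 0.17 in deficient mice (adjusted p = 0.00984), and by 0.39 ± 0.08 without M2, on which it read 11.03. Krt75 rose by 0.33 ± 0.10 and Krt79 fell by 0.45 ± 0.15 in wildtype mice (adjusted p = 0.0202 and 0.0302). The keratins Krt1, Krt10, Krt16 and Krt17 did not pass the test in either genotype. Without deficient air M2, 3 rose and 1 fell in each genotype. That fit called 29.9% of all genes in deficient mice and 37.2% in wildtype mice, in either direction.

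Of 17 measured genes of airway basal cells, 4 rose and 2 fell with ozone in deficient mice, and 3 rose and 1 fell in wildtype mice, where 30.3% and 36.7% of all genes were called in either direction. Lamb3, a chain of the laminin under basal cells, rose by 0.49 ± 0.09 (adjusted p = 7.32e-04) in deficient mice and by 0.63 ± 0.09 (adjusted p = 9.59e-05) in wildtype mice. The integrin chains Itga3 and Itgb4 rose too, by 0.52 ± 0.10 and 0.36 ± 0.11 in deficient mice and by 0.34 ± 0.10 and 0.32 ± 0.11 in wildtype mice. The laminin chain Lama3 fell by 0.34 ± 0.12 in deficient mice and by 0.35 ± 0.12 in wildtype mice. In deficient mice the falls of Lama3 and of the transcription factor Sox2 (-0.57 ± 0.20) were no longer called without M2, at adjusted p of 0.122 and 0.0637. The laminin and integrin genes are also made by alveolar epithelium. The basal markers Krt5, Krt14 and Trp63 overlapped between ozone and air on 6 of their 7 probe sets in both genotypes without deficient air M2, and on all 7 with it.

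The simple keratins moved with ozone in both genotypes. Krt7, Krt8, Krt18 and Krt19 rose by 0.87 to 1.15 log2 in deficient mice and by 0.81 to 1.11 in wildtype mice, and Krt18 rose by 1.15 ± 0.11 (adjusted p = 2.06e-06) and 1.11 ± 0.11 (adjusted p = 3.75e-06). Krt8 was 12.12, 12.33, 12.22 and 12.39 in deficient ozone, against 11.12, 11.02, 11.35 and 11.14 in deficient air, and 12.13 to 12.46 in wildtype ozone, against 11.05 to 11.67 in wildtype air. All ozone arrays lay above all air arrays for Krt8. Deficient air M2 was the lowest of the 16 arrays for each of these 4 keratins, at 11.32 for Krt7, 11.02 for Krt8, 10.39 for Krt18 and 10.84 for Krt19. That array was thus at the ozone level for Sprr1a, Tgm1, Sfn and S100a14 and at the air level for the simple keratins. Of the 6 genes on this list, Krt23 fell by 0.51 ± 0.15 in deficient mice (adjusted p = 0.0160).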

How the data were processed

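RNA of 16 left lungs was hybridised to 16 Affymetrix arrays, per the labels. The deposited table holds an intensity for each array and probe set, obtained with RMA (background correction, normalization between arrays, summary over probes) per the submitters' processing notes, which name no software. Values ran from 11.1 to 26974.7, a linear scale, so the log2 of the deposited intensity was taken. Array medians differed by at most 0.0757 log2. Of 22690 probe sets, 64 were controls, 20380 carried a single symbol, 691 more than 1 and 1555 no symbol. A gene's brightest probe set, by its mean level, stood for it in the tests of 12393 genes. With limma 3.58.1 (R 4.3.3; lmFit, eBayes), 1 model took the 4 groups and sex as terms. P-values were Benjamini-Hochberg adjusted over all genes, and a gene was called under 0.05. Fits were tested on simulated data.

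The members and lists were chosen with earlier results of these data known. Named from the lists were up to 6 called genes of smallest p per list and ozone contrast, the 5 genes closest to Sprr1a, Krt5 and Krt4, the 20 with the largest gap on deficient air M2 and the brightest markers of other tissues, predicted genes left out. Other genes named (Lor, Ivl, Ms4a1, Cd79a, Cd79b, Krt1, Krt10, Krt16, Krt17, Flg, Pkp1, Perp, Dsc2, Dsg2, Pkp2, Pkp3, Myh1 and the Y-linked genes) were picked after values were seen. So were Myh2 and Myh4. Replicate labels shared by the groups did not pair the samples: correlations of deviations ran from -0.31 to 0.129, and 2 of 24 were over 0.1. Alternatives were a second quantile normalization, arrays shifted to the same median, leaving out the dimmest 30% of genes, the mean of probe sets, each probe set alone, an intensity trend, array weights, no sex term, a replicate block, and each array left out. A fit without wildtype air F1, deficient air F2 and deficient air M2, which carry markers of other tissues, was added after the data were seen. Sequences, chromosomes and gene order are RefSeq's for GRCm38.p6. Scripts ran under Python 3.11.15, pandas 2.3.3, matplotlib 3.10.9.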

Additional observations from a re-analysis of the deposited data

Results flagged for a closer look

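In groups of 4 arrays, 1 array of a group stood far from the other 3 in 11 of 68 tests (17 probe sets in 4 groups), by Dixon's criterion at 95%, where chance gives about 1 in 20. The genes were chosen largely because deficient air M2 stood out on them, so its share of these outliers follows from that choice and is no evidence about the genes. Of the 11, 8 were deficient air M2: Sprr1a at 9.36 (5.22 to 5.53 on the other deficient air arrays), Sprr1b at 5.10 (4.08 to 4.21), Krt4 at 13.03 (5.64 to 5.89), Krt5 at 9.08 (6.41 to 6.80), Krt13 at 10.64 and 12.25 (4.61 to 4.77 and 3.92 to 4.24), Krt14 1423935_x_at at 6.95 (4.64 to 4.90) and Krt15 at 8.85 (5.62 to 5.87).

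The other 3 were on 2 arrays, and 3 of 68 tests is no more than the 5% expected by chance. Krt6a 1422784_at read 5.39 on deficient air M1, against 4.78 to 4.88 on the other deficient air arrays. Wildtype ozone F2 read 4.82 for Trp63 1451876_a_at, against 4.91 to 4.92 on the other wildtype ozone arrays, and 6.40 for Ly6d, against 7.27 to 7.40. On that array Cd79a and Cd79b, the B cell receptor chains, were 7.51 and 7.31, against 8.11 to 8.53 and 7.85 to 8.11 on the other wildtype ozone arrays.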

How the results depend on the processing

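The median difference over the 10 genes had no test and was set against a spread between replicates of 0.068 log2. In 105 of the 154 alternatives it moved by less, but part of these could not move it. A difference between groups stays the same when an array outside both is left out. The intensity trend, the replicate block and the fit without a sex term leave the differences unchanged too. The count is therefore no measure of stability. Ozone minus air in deficient mice (-0.33) became -0.43 with the dimmest 30% left out, -0.23 over single probe sets, -0.21 with array weights and 0.071 without 3 arrays carrying markers of other tissues. In wildtype mice (0.080) it became 0.16 with array weights. Deficient minus wildtype in air (0.57) became 0.72, 0.40, 0.41 and -0.073 in the same order. The genotype difference of the ozone effect (-0.70) became -0.59 over single probe sets, -0.50 with array weights and -0.064 without the 3 arrays, and female minus male (-0.18) became -0.061 with array weights and -0.016 without the 3 arrays.

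With each array left out in turn, the medians ran from -0.49 to 0.079 for ozone in deficient mice, from -0.015 (without wildtype air M2) to 0.19 for ozone in wildtype mice, from -0.13 to 0.81 for genotype in air, from -0.15 to -0.033 for genotype in ozone, from -0.97 to -0.0072 for the difference of ozone effects and from -0.30 to 0.014 for sex. The value nearest or across 0 in deficient mice, in air, for the difference and for sex was the one without deficient air M2. The replicate block in place of sex left every median as it was (0.57 for genotype in air). That was fixed in advance, since each replicate label occurs once in every group. The block could not be run for sex. Genes called between genotypes in ozone numbered 2, 4 with the replicate block, 5 with quantile normalization again, 5 with the mean of probe sets, 9 without the 3 arrays and 10 with array weights, and from 1 to 7 with each array left out (5 without deficient air M2, 7 without deficient ozone F1, and 1 without wildtype ozone M1, F1 or F2 or wildtype air M1 or F2). The other settings gave 2 or 3. Signal over background is unknown here, which limits the dim probe sets (Sprr1b, Krt13, Trp63 off deficient air M2).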

Other observations

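Genes were ranked by the gap on their brightest probe set only. The 20 genes with the largest gap between deficient air M2 and the highest of the other 15 arrays held 2 members, Krt4 and Krt13. Genes of stratified epithelium filled much of the rest. The late envelope genes Lce3a and Lce1f read 11.46 and 9.04 there, against 4.48 to 4.96 and 4.42 to 4.77 elsewhere, and Crct1, their neighbour by function in cornified cells, 10.81 against 4.14 to 4.61. Mt4, a metallothionein of stratified squamous epithelium, read 11.05 against 4.32 to 4.58, the keratinocyte calmodulin Calm4 9.55 against 4.84 to 5.16, and the defensin Defb4 9.17 against 3.81 to 4.32. Ada, adenosine deaminase, which in mice is abundant in the lining of the upper digestive tract, read 11.40 against 5.33 to 6.27.

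Genes of skeletal muscle made up much of the remainder. Tnnc2, the fast troponin C, had the largest gap among the brightest probe sets, at 12.56 against 4.72 to 5.09 (7.47 log2). Krt13 on its dimmer probe set 1422454_at had a larger gap, 7.93. Myh8, the perinatal myosin, read 10.80 against 3.91 to 4.21, and Mylpf, Tnnt3, Actn3, Myot and Atp2a1 stood 4.27 to 6.56 log2 above every other array. The fast myosin Myh1 was not raised there, at 4.91 against 4.71 to 5.31. Myh4 was raised, at 7.18 against 3.92 to 4.10, and Myh2 narrowly so, at 5.54 against 5.13 to 5.41. Of the 19 measured genes of stratified keratins and desmosomes 6 were highest on that array, among them Pkp1 at 10.09 (7.16 to 7.72 elsewhere), Perp at 10.66 (8.01 to 8.62) and Dsc2 at 7.03 (5.51 to 5.88), while Dsg2, Jup, Pkp2 and Pkp3 lay inside their ranges, and the median gap of the list was -0.21.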
